A study of Homo sapiens with 3 samples.

Results

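The genes described here stood apart on the array of the new monolayer (NM), while the original monolayer (OM) and the melanoma bodies (MB) read alike. They were chosen by their measured ratios: a probe for a RefSeq mRNA had to be well above background on all 3 arrays, MB had to lie between 0.67 and 1.5 times OM, and NM had to be at least 2.5 times, or at most 0.4 times, both OM and MB. Of 12483 genes that could be judged, 79 were higher only in NM (0.633%) and 72 were lower only in NM (0.577%), which gave 151 members. These shares follow from the thresholds and are a description, with no test.

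RNA came from 1205Lu, an established human melanoma line grown out of a lung metastasis of WM793 cells in a mouse. OM cells were kept for 14 days in standard medium (RPMI-1640 with fetal calf serum). MB cells were kept for 14 days in hESC medium (DMEM/F-12 with a serum replacement), where they form attached 3-dimensional bodies that were detached by hand, and NM cells were the flat culture that such bodies seeded during 10 days back in standard medium, with leftover bodies removed. Each population was 1 culture on 1 array of the same slide, so that no test was possible, and differences between populations, between cultures and between labelling reactions cannot be told apart. OM and NM shared the medium at harvest, but differed in culture history and in the days since the last change of medium.

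Melanoma cells can pass back and forth between proliferative, invasive and stem cell-like states, and a return to serum after a serum-free period is a known trigger of signalling, adhesion and stress responses. Netrin receptors guide migrating cells, GDF15 and PPP1R15A are induced by cell stress, and nestin marks neural progenitors and many melanomas.

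Out of 41000 probes, 28746 (OM), 29126 (MB) and 26516 (NM) passed the scanner software's test for a signal well above background. Signals are given below unscaled, in arbitrary units (a.u.), and every ratio was taken after each array was divided by its 75th percentile over probes (1758 a.u. in OM, 1960 in MB and 1625 in NM), so that a ratio differs slightly from the quotient of the printed signals. Probes printed in 10 spots gave a technical SD of 0.06 for the log2 ratio of NM to OM of a single spot, a 1.05-fold difference, and it says nothing of variation between cultures. Among melanocytic markers, SOX10, S100B, MITF, PMEL and DCT were well above background on all 3 arrays, whereas TYR and TYRP1 were on none and MLANA was not on NM. The defining markers CDH5 (endothelium), LUM and COL1A1 (fibroblasts), KRT5, EPCAM and CDH1 (epithelium), PTPRC (leukocytes) and HBB (erythrocytes) were not well above background on any array. From the same lists KDR (endothelium) was well above background on OM alone, and PECAM1 (endothelium), DCN (fibroblasts) and HBA1 (erythrocytes) on MB alone, where PECAM1 read 87.7 a.u. Of the 18 markers of other cell types, 6 were measured on all 3 arrays, and VWF, PDGFRA and KRT14, the single measured markers of their lists, read 185, 5519 and 213 a.u. in OM against 95.6, 3174 and 118 in NM. The leukocyte markers CD3E and CD14 read 110 and 70.3 a.u. in OM against 87.4 and 58.7 in NM.

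The genes higher only in NM covered a wide range of signal. Their median was 258 a.u. in OM, 292 in MB and 745 in NM, and 26 of the 79 (32.9%) read under 100 a.u. in OM, against 8.29% of all genes judged. At the median they were 3.17-fold higher in NM than in OM and 3.49-fold higher than in MB. The genes lower only in NM had medians of 554 a.u. in OM, 800 in MB and 165 in NM, and at the median they were 3.12-fold lower in NM than in OM and 3.41-fold lower than in MB. In 30 of these 72 the NM signal was under 100 a.u. Most differences were moderate: 40 higher and 32 lower genes passed 3-fold against both populations, 9 and 1 passed 5-fold. Within the window allowed for MB over OM the 2 groups leaned apart, with MB above OM for 27.8% of higher genes and 63.9% of lower genes, against 45.4% of all genes.

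**Figure D1:**
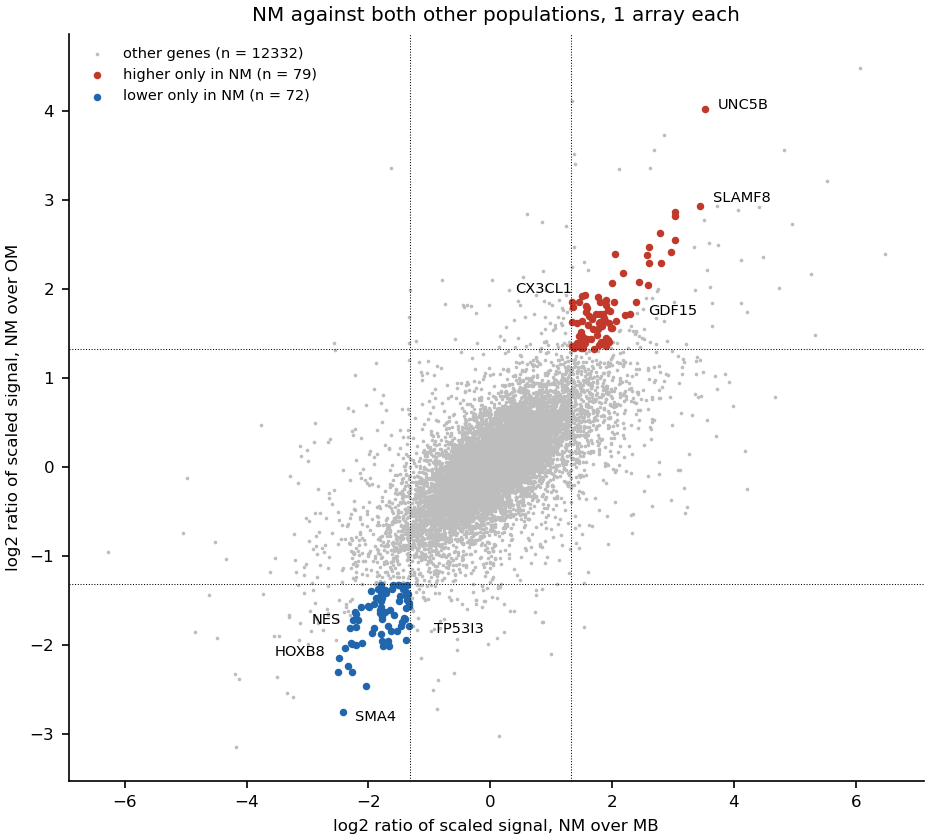
Log2 ratio of NM to OM (vertical) against log2 ratio of NM to MB (horizontal) for each gene judged, 1 point a gene, with the 79 genes higher only in NM in red, the 72 lower only in NM in blue and dotted lines at the thresholds of 2.5 and 0.4. Among the members UNC5B stands highest at 4.03 and 3.53 and SMA4 lowest on the vertical axis at -2.76, and grey points beyond both lines are genes in which MB also differed from OM.

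The requirement that MB resemble OM decided much of the membership. A ratio of NM to OM of at least 2.5 was found in 228 genes and one of at most 0.4 in 212. Both NM ratios reached 2.5 in 152 genes, of which 65 had MB below the window and 12 above it. Both were at most 0.4 in 126 genes, of which 56 had MB above the window and 0 below it. The genes left out this way were mostly those in which MB and NM lay on opposite sides of OM. Higher genes made up 52.3% of the members, against 34.5% without scaling between arrays, 62.8% with quantile normalization, 63.7% with normexp background correction and 62.7% with no background subtraction.

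The members were ranked by the geometric mean of their 2 NM ratios, and the 15 at the top of each direction are plotted by array. They are taken here by known role, an arrangement made after their values were seen, with no count of such roles over all genes. Several of the higher genes encode cell surface receptors. UNC5B, a receptor for the guidance protein netrin, read 258 a.u. in OM, 408 in MB and 3899 in NM, and was 16.4-fold higher in NM than in OM and 11.5-fold higher than in MB. Its probe lies on chromosome 10 from 72729603 to 72729662 (hg17, the build of the array's own annotation). The NM signal stood far above both others, although MB was already 1.42 times OM. SLAMF8, a surface receptor of the SLAM family known from myeloid cells, read 34.3, 26.8 and 243 a.u. in OM, MB and NM and was 7.66-fold higher in NM than in OM. P2RX4, a cation channel opened by extracellular ATP, read 192, 150 and 871 a.u., a 4.91-fold difference from OM and a 6.99-fold difference from MB. SIGLEC15, a sialic acid-binding lectin, read 120, 104 and 470 a.u. In each of these receptors NM was the brightest array by far, as the rule required.

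Further receptors, named after their values were seen, showed the same order. BDKRB2, the constitutive bradykinin receptor, was among the brighter members at 6892 a.u. in OM, 6799 in MB and 23005 in NM, 3.61-fold above OM. ADORA2A, an adenosine receptor that raises cyclic AMP, met the rule on both of its measured probes, with 258, 314 and 742 a.u. on one and 72.5, 113 and 303 a.u. on the other. VDR, the nuclear receptor for vitamin D, was printed in 10 spots. It read 795 ± 38.9 a.u. in OM, 846 ± 22.6 in MB and 1966 ± 65.1 in NM (SD over spots within 1 array), 2.68-fold above OM. TLR6, a Toll-like receptor for lipopeptides, read 76.7, 74.6 and 226 a.u. on the probe that met the rule. Its second probe gave ratios of 1.49 and 1.82, in the same direction and below the threshold.

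Other higher genes encode secreted proteins. GDF15, a circulating stress-induced factor of the TGF-beta family and a target of p53 and of the integrated stress response, read 16617 a.u. in OM, 12758 in MB and 55466 in NM. The NM level was 3.61 times that of OM and 5.24 times that of MB, with the OM and MB arrays closer to each other than to NM, as the rule required. VEGFC, the growth factor of lymphatic vessels, read 419, 330 and 1263 a.u., 3.26-fold above OM. CX3CL1, a chemokine anchored in the membrane and shed from it, read 5959, 7885 and 19347 a.u., and its 2 dimmer probes gave ratios to OM of 2.24 and 2.96. CCL26, an eotaxin that attracts eosinophils, read 56.1, 54.7 and 270 a.u., and its second probe 45.6, 31.9 and 219 a.u. On that second probe MB was 0.63 times OM, below the window. All 3 probes of CX3CL1 and both of CCL26 thus had NM as the brightest array.

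IL24, a cytokine first found in differentiating melanoma cells, met the rule on a dim probe at 40.1 a.u. in OM, 42.3 in MB and 123 in NM. Its other probe read 34.4, 69.1 and 159 a.u., on which MB was 1.80 times OM, outside the window. C3, the central protein of complement, read 2270, 2526 and 6645 a.u. and was 3.17-fold higher in NM than in OM and in MB alike. LCN2, an iron-siderophore carrier of innate defence, read 1491, 1678 and 3831 a.u. C1QTNF1, a secreted adipokine-like protein, met the rule on 2 probes, 3.62-fold and 3.33-fold above OM. LAMB3, the laminin chain of epithelial basement membrane, read 6780 a.u. in OM, 8685 in MB and 21646 in NM, 3.45-fold above OM. These secreted genes spanned over 2 orders of magnitude in signal, from IL24 to GDF15.

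Of the listed matrix, adhesion and protease genes, 1 in each list was a higher member. It was LAMB3 of 50 matrix genes (2%), CDH13 of 31 integrins and cadherins (3.23%) and ADAMTS2 of 42 matrix proteases and inhibitors (2.38%). Over all genes judged the share was 0.633%. These lists do not hold the higher members MATN1 and MMP28. MATN1, a cartilage matrix protein, read 49.9, 39.9 and 271 a.u. on the probe that met the rule, whereas its other probe was about level at 52.0, 57.3 and 58.4 a.u. CDH13, a cadherin held by a lipid anchor, was one of the brightest members at 27068 a.u. in OM, 36821 in MB and 77581 in NM, 3.1-fold above OM and 2.54-fold above MB. ADAMTS2, which trims procollagen, read 48.8, 51.7 and 117 a.u. MTSS1, which binds actin and bends the membrane, read 688, 523 and 3392 a.u. and was 5.34-fold higher in NM than in OM. PRSS21, a serine protease tethered to the surface, was dim on OM and MB at 25.9 and 26.2 a.u. and reached 133 in NM.

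Further higher members act in stress responses, transcription or metabolism. PPP1R15A (GADD34), the phosphatase subunit that reverses phosphorylation of eIF2-alpha late in the integrated stress response, read 2190 a.u. in OM, 2390 in MB and 7420 in NM. It was 3.67-fold above OM and 3.74-fold above MB. ARRDC4, an alpha-arrestin that lowers glucose uptake and is switched on by sugar, read 116, 117 and 669 a.u., a 6.22-fold difference from OM. NFIL3, a basic leucine zipper repressor of the clock and of immune cells, read 3856, 3192 and 10527 a.u. MXD1, which competes with MYC for its partner MAX, read 1747, 2226 and 4968 a.u. on one probe and was 1.39-fold above OM on another. KLF15, a zinc finger regulator of gluconeogenesis, read 124, 132 and 315 a.u. BNIP3L, a receptor for mitophagy induced by hypoxia, read 4382, 4592 and 10576 a.u., while its second probe was 1.63-fold above OM.

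The remaining genes of the top 15 had no common role. KLHDC7B, a kelch-repeat protein, read 34.7, 34.5 and 233 a.u. SYP (synaptophysin), a membrane protein of synaptic vesicles, read 26.0, 24.96 and 170 a.u. and was 7.06-fold above OM. FABP6, the bile acid-binding protein of the ileum, read 34.7, 31.2 and 158 a.u. These genes were near the dim end on OM and MB, where the lowest signal well above background was 20.9 and 19.4 a.u. SLC9B1, a sodium-proton exchanger of testis, read 90.6, 69.04 and 346 a.u. GALNT15, which starts mucin-type O-glycans, read 23.3, 33.3 and 114 a.u. N4BP2L1 read 76.3, 85.4 and 320 a.u. Of the other list members, GBP2, a guanylate-binding protein induced by interferon, read 1144, 1440 and 3538 a.u. and was 3.35-fold above OM, the single member among 39 measured interferon-stimulated genes (2.56%, against 0.633% of all genes judged).

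**Figure D2:**
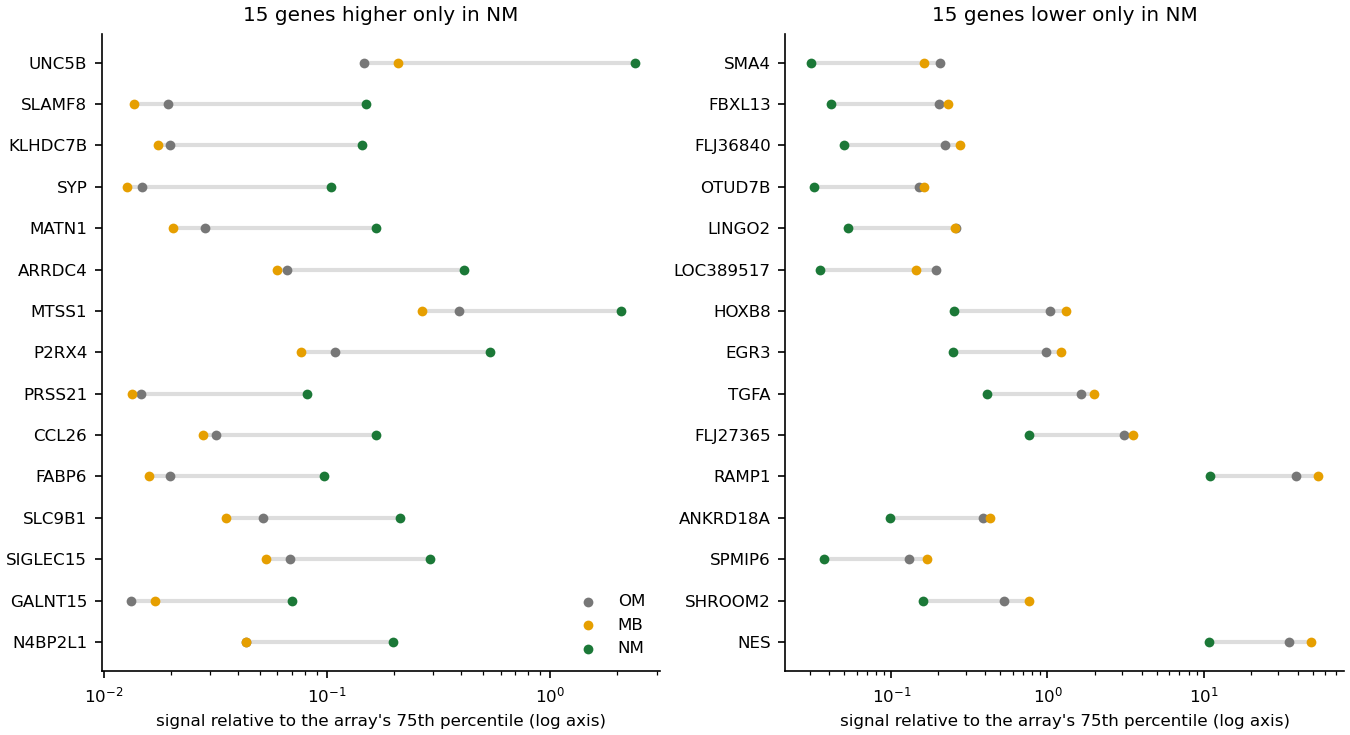
Signal of the 15 top genes of each direction on OM (grey), MB (orange) and NM (green), each as a multiple of its array's 75th percentile on a log axis, 1 array a point with no error bar. In every row, as the rule required, the OM and MB points lie near each other and the NM point apart. The rows run from SLAMF8 and SYP near the background to NES and RAMP1 among the brightest.

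The genes lower only in NM held 1 of 23 listed MAPK feedback genes, TGFA, and 0 of 50 listed growth factors and receptors, beside 0.577% of all genes judged. TGFA, itself a ligand of the epidermal growth factor receptor, read 2879 a.u. in OM, 3873 in MB and 669 in NM, and was 3.98-fold lower in NM than in OM and 4.80-fold lower than in MB. EGR3, an immediate early zinc finger factor downstream of MAPK signalling, read 1728, 2382 and 406 a.u., 3.94-fold lower in NM than in OM. RAMP1, the partner that turns the calcitonin-like receptor into a receptor for CGRP, was one of the brightest at 68227 a.u. in OM, 106392 in MB and 17923 in NM, 3.52-fold below OM. In all 3 genes MB was the brightest array and NM the dimmest. TLR4, the Toll-like receptor for lipopolysaccharide, read 942, 1361 and 299 a.u., and its 2 other probes gave ratios to OM of 0.42 and 0.57. WWTR1 (TAZ), a co-activator held back by the Hippo pathway, read 7905, 11161 and 2751 a.u., and its 3 other probes lay between 0.44 and 0.52 times OM. On these probes MB was 1.64, 1.90 and 1.24 times OM, and only the last lay within the window. DACT1, a regulator of Wnt signalling, read 2867, 4222 and 956 a.u. Its second probe was 0.33 times OM, with MB at 1.52 times OM, just outside the window.

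Other lower members act in lineage, position or the cytoskeleton. NES (nestin), an intermediate filament protein of neural stem and neural crest-derived cells, read 62112 a.u. in OM, 95022 in MB and 17473 in NM. It was 3.29-fold below OM and 4.51-fold below MB. For NES, MB was already 1.37 times OM, and the rule was met under 5 of the 8 alternatives of processing given below. For the protein, the paper reports strong nestin staining in the bodies and weak staining in the original monolayer. HOXB8, a homeobox factor of positional identity, read 1828, 2588 and 412 a.u. and was 4.11-fold lower in NM than in OM. PRAC1, whose probe lies 109 kb away in the HOXB cluster on chromosome 17, read 1692, 1551 and 483 a.u., 3.24-fold below OM. S100A16, a calcium-binding protein, read 45884, 66157 and 15794 a.u. SHROOM2, which links actin and myosin at cell contacts, read 921, 1483 and 259 a.u. LINGO2, a leucine-rich repeat membrane protein of neurons, read 455, 498 and 85.3 a.u. Each of these 6 genes had NM as its dimmest array by at least 2.5-fold, as the rule required.

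A pair of apoptosis genes was found among the lower members. TP53I3, an oxidoreductase induced by p53, read 5090 a.u. in OM, 5973 in MB and 1284 in NM, 3.66-fold below OM and 3.86-fold below MB. BAX, which opens the outer mitochondrial membrane, was printed in 10 spots and read 14537 ± 349, 16945 ± 572 and 5187 ± 114 a.u. (SD over spots), 2.59-fold lower in NM than in OM. A second BAX probe read 2882, 2818 and 1050 a.u., 0.39 times OM and 0.45 times MB. The remaining BAX probe read 6333 a.u. in OM, 4325 in MB and 5880 in NM, 1.00 times OM and 1.64 times MB. Which BAX transcripts each probe reads was not analysed here. IKBIP, named for its interaction with the kinase IKK-beta, read 3297, 3093 and 756 a.u. on the probe that met the rule, while its brighter probe read 6228, 5285 and 4542 a.u.

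The lower genes with the largest differences included several dim or little-studied transcripts, beside bright ones described above such as NES and RAMP1. SMA4, from a duplicated region of chromosome 5 (69551353 to 69551412, hg17), read 363 a.u. in OM, 319 in MB and 49.5 in NM, 6.77-fold and 5.35-fold lower. FBXL13, an F-box protein, read 355, 452 and 66.3 a.u. OTUD7B, a deubiquitinase of NF-kB and other signalling, read 265, 319 and 52.1 a.u. Its second probe read 137, 260 and 52.0 a.u., with MB at 1.70 times OM, outside the window. On NM, SMA4, FBXL13 and OTUD7B were near the lowest signal well above background, 29.1 a.u. FLJ36840 read 388, 543 and 80.6 a.u. LOC389517 read 337, 281 and 56.5 a.u. FLJ27365 was brighter, at 5396, 6923 and 1240 a.u. ANKRD18A, an ankyrin-repeat gene, read 683, 836 and 160 a.u., and its second probe was 0.52 times OM and 0.79 times MB. SPMIP6, a protein inside sperm microtubules, read 228, 333 and 60.2 a.u. Copies of SMA4 could hybridise to the same probe, so that its identity is uncertain.

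The promoters of a few members are shown because their genes stand for the stress, sugar-response and apoptosis members, and they let the letters before the start site be read beside the values. Each is the 250 bases before the annotated start (RefSeq, GRCh38.p14, plus strand, 5′ to 3′). Capitals mark motifs. TGACGTCA is the cyclic AMP response element (CRE), to which the CREB family of factors is known to bind. TATAAA is the TATA box, a core promoter element of many inducible genes. The E-box of the MYC and MondoA families is CACGTG. The element of AP-1, the FOS and JUN dimer, is TGACTCA in the promoters shown. CCAAT is the CCAAT box of the factor NF-Y. On the other strand it is written ATTGG.
PPP1R15A (chr19:48872171-48872420): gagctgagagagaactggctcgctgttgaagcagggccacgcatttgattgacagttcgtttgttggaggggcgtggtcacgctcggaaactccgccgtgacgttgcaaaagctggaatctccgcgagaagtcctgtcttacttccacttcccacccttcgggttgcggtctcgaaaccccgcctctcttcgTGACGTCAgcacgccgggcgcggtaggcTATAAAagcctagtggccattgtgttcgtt
GDF15 (chr19:18385908-18386157): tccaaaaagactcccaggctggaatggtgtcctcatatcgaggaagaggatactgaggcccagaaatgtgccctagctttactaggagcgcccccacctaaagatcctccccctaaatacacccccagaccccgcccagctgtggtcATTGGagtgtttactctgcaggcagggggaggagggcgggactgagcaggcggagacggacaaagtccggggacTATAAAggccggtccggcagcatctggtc
ARRDC4 (chr15:97960453-97960702): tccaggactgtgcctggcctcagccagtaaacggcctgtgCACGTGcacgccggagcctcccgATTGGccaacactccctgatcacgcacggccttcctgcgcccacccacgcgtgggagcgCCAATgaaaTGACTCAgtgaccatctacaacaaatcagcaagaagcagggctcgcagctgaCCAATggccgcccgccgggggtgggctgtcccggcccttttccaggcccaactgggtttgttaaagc
BAX (chr19:48954625-48954874): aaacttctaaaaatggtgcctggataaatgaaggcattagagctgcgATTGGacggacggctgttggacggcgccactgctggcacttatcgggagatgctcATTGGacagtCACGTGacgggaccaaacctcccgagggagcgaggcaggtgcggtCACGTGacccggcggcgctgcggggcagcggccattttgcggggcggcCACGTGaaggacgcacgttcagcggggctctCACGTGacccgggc
PPP1R15A held a CRE and a TATA box close together, GDF15 a TATA box, ARRDC4 an E-box with an AP-1 motif, and BAX several E-boxes.

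Over the 59 higher and 49 lower members that matched a promoter by symbol, and over 10031 judged genes, motifs were searched on both strands from 250 bases before to 50 after the start. The E-box was found in 11.9% of higher members, 12.2% of lower members and 10.0% of the judged genes. The CRE was in 2 higher members (3.39%, PPP1R15A and TMEM59L), in 0 lower ones and in 3.2% of the judged genes. TATAAA was in 10.2% and 8.16% against 6.11%, and CCAAT in 28.8% and 22.4% against 37.1%. The AP-1 motif (TGACTCA or TGAGTCA) was in 5.08% and 4.08% against 3.15%. The NF-kB motif, searched as GGGACTTTC, as GGGAATTTC and as GGGAATTCC, was in 2 higher members, SLAMF8 and OR4C15, in 0 lower ones and in 0.937% of the judged genes. The heat shock element (GAANNTTC) was in 3.39% and 6.12% against 4.74%, and the ISRE (GAAANNGAA) in 8.47% and 2.04% against 6.40%. These shares rest on few genes and are a description of letters, not of binding.

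Against 39 lists of pathway genes, the members were scattered: 21 of the 151 were in a list, and 2 lists held more than 1 member. Of 29 measured chemokines, cytokines and some of their receptors, CX3CL1 and IL24 were higher only in NM (6.90%, against 0.633% of all genes judged) and 0 were lower. The list does not hold CCL26, a member described above. The median log2 ratio of NM to OM of the list was 0.53, against 0.04 over all genes judged. A different order of the arrays was commoner in this list. In CXCL1, CXCL2, CXCL3, CXCL8, CCL20 and TSLP both NM ratios also passed 2.5, but MB lay below the window: CXCL8, a neutrophil chemokine, read 1657 a.u. in OM, 109 in MB and 8082 in NM. CXCL1, of the same family, read 49621, 8306 and 184837 a.u. CX3CL1 was thus separated from these genes by its MB signal, 1.19 times OM, where that of CXCL8 was 0.059 times OM.

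Of 33 measured p53 targets and CDK inhibitors, GDF15 was higher only in NM (3.03%, against 0.633% of all genes judged), and TP53I3 and BAX were lower (6.06%, against 0.577%). The ratio of NM to OM was above 1 in 21 of the 33, with a median log2 of 0.32, against 0.04 over all genes judged. For NM to MB the median log2 was 0.57, against 0.09. CDKN1A (p21), the p53-induced inhibitor of the cell cycle, read 9217 a.u. in OM, 9326 in MB and 8133 in NM, 0.95 times OM. MDM2, the ligase that degrades p53, read 185, 195 and 115 a.u., 0.67 times OM. The death receptor gene FAS read 1269, 838 and 2775 a.u., 2.37 times OM, and the BH3-only genes BBC3 and PMAIP1 were 1.39 and 1.52 times OM. In all, 22 of the 33 lay within 1.5-fold of OM. Of the members in this list, GDF15 thus went the opposite way to TP53I3 and BAX, and all 3 stood apart from most of the list in size.

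Other lists held 1 member or none. Among them, 0 of 19 NF-kB response genes, 0 of 46 listed ATF4 target genes, 0 of 24 chaperones and degradation genes of the endoplasmic reticulum, 0 of 29 heat shock genes and 0 of 65 cell cycle genes were members, where 0.633% and 0.577% of all genes judged were. The 46 listed ATF4 targets do not include PPP1R15A or GDF15. Of them 3, namely TRIB3, DDIT3 and NUPR1, had both NM ratios above 2.5, each with MB below the window. The ratio of NM to OM was above 1 in 43 of the 46, and 21 lay within 1.5-fold of OM. Its median log2 was 0.60, against 0.04 over all genes judged, and that of NM to MB was 1.98, against 0.09. For NM to OM the median log2 was 0.69 in the NF-kB list and 0.21 in the cell cycle list. It was -0.07 in the endoplasmic reticulum list and -0.31 in the heat shock list. NDUFV3, a subunit of respiratory complex I and the member among 71 respiratory chain genes, met the rule on a probe at 950, 1473 and 338 a.u., while its brighter probes, at 9843 and 9728 a.u. in OM, were 0.85 and 0.97 times OM. BMPR2, a receptor for bone morphogenetic proteins, was 2.95-fold lower than OM on the probe that met the rule (545, 827 and 171 a.u.) and 1.06 times OM on the other.

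**Figure D3:**
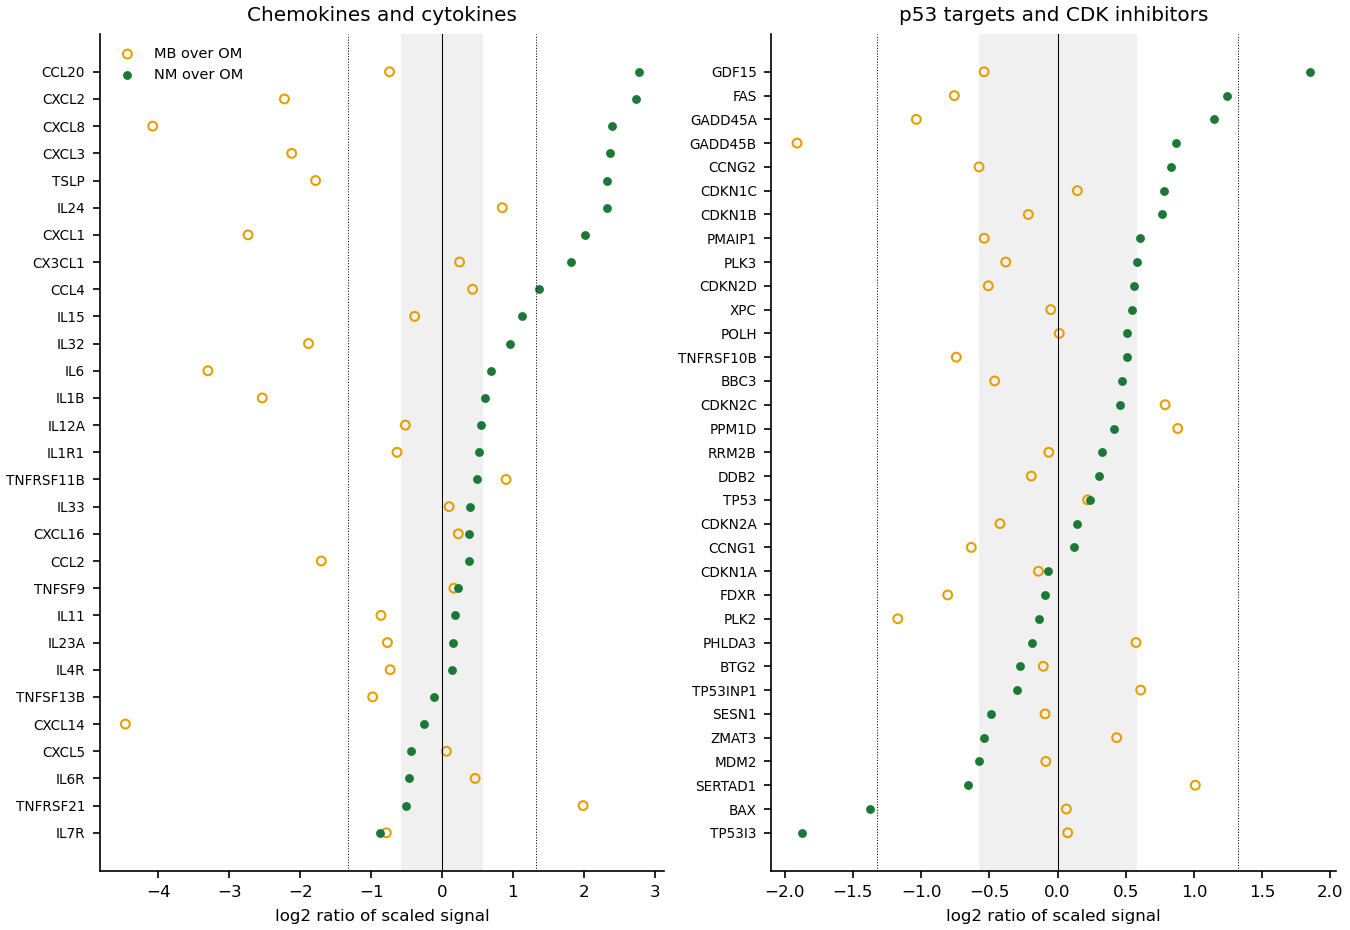
Log2 ratios of MB to OM (open orange circles) and of NM to OM (green points) for the measured genes of the 2 lists that held more than 1 member, with the window for MB over OM shaded and the NM thresholds dotted. In CX3CL1, GDF15, TP53I3 and BAX the MB circle lies within the window and the NM point beyond a threshold, IL24 is drawn by its other probe, and in CXCL8, CXCL2 and CXCL1 the MB circle lies far to the left.

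Other probes of the same genes were not used to choose the members, apart from probes that passed themselves, and they read the same RNA. Of the 79 higher genes 26 had another measured probe, 32 probes in all, of which 27 (84.4%) were above both OM and MB, 13 by over 1.5-fold in both ratios, and 3 met the rule. Of the 72 lower genes 35 had another measured probe, 63 in all, of which 53 (84.1%) were below both, 38 by over 1.5-fold, and 5 met the rule. Over the 9846 measured RefSeq mRNA probes of genes with several such probes, 37.4% were above both and 39.0% below both. This background was not matched for signal. The other probes of members also include some not for a RefSeq mRNA, such as the second SYTL5 probe, so that the shares are not strictly alike. The second probes were milder: their median NM level was 1.47 times OM for the higher and 0.54 times OM for the lower genes. Genes with 2 passing probes included C1QTNF1, ADORA2A and EFHD1 among the higher, and ITPRID2, POP1, CAPS and the array's RP11-262H14.4 among the lower.

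Not every second probe followed. In 7 higher and 15 lower genes a brighter probe failed the rule, and in 5 and 10 of these it was not past 1.5-fold against both populations. WNT6, a Wnt ligand, met the rule at 248, 207 and 675 a.u., while its brighter probe read 70792 a.u. in OM, 53884 in MB and 89790 in NM, 1.37 times OM. GGA1, a sorting adaptor of the Golgi, met it at 229, 210 and 63.4 a.u., while its brighter probe read 38113, 34618 and 33850 a.u., 0.96 times OM. KMT2C, a histone methyltransferase, met it at 123, 135 and 39.9 a.u., while its brightest probe was 1.251 times OM at 107528 a.u. A pair of further KMT2C probes, also brighter than the one that met the rule, were 0.53 and 0.47 times OM, and the brighter WNT6 probe was 2.01 times MB.

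**Figure D4:**
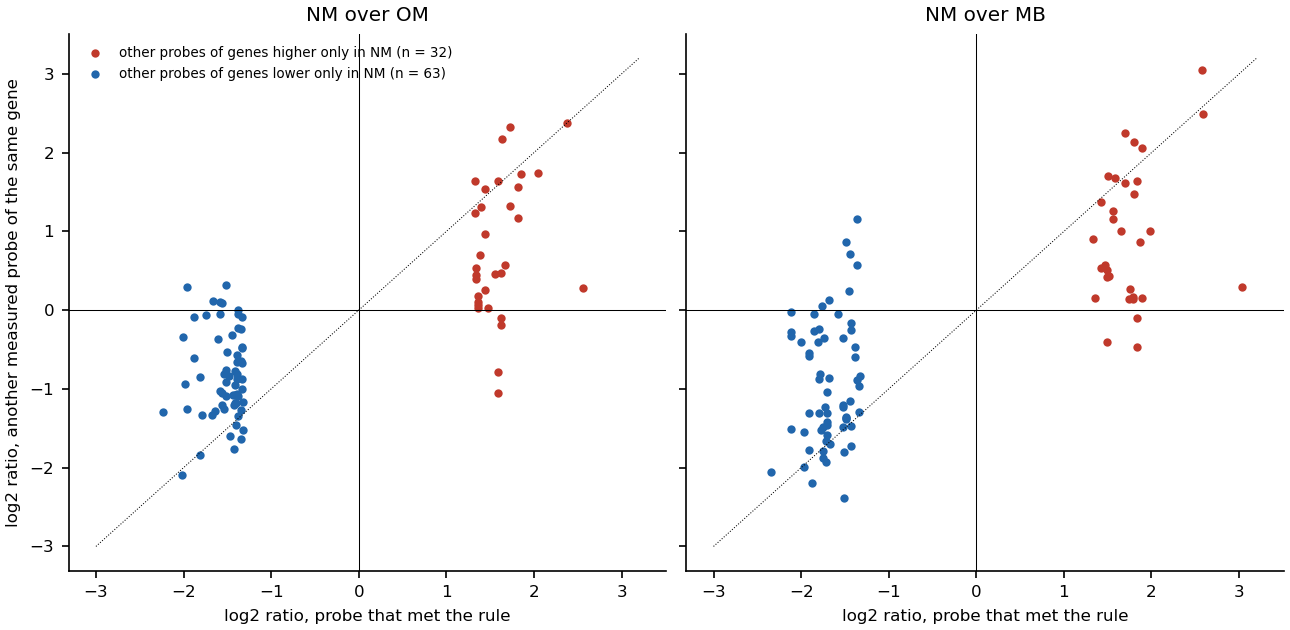
Log2 ratio of every other measured probe of a member gene (vertical) against that of the probe that met the rule (horizontal), for NM over OM (left) and NM over MB (right), with 32 probes of higher genes in red, 63 of lower genes in blue and the line of equality dotted. Most points lie on the same side of 0 on both axes and nearer to 0 than the line, and several lie at 0 or beyond it.

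The members closest to the thresholds show that membership was a matter of degree. Just inside stood GK, LHPP and R3HDM2, whose smaller NM ratio was 2.52 in each, and just outside ART5 (2.49), MBP (2.48) and CD7 (2.47). Among the lower genes PRKAR1B, HYCC2 and EEF1AKMT4 were just inside with a larger NM ratio of 0.399, 0.399 and 0.399, and LINC00312, WNT7B and CCN4 just outside at 0.4002, 0.401 and 0.403. With a technical SD of 1.05-fold for a single spot, the genes on either side of a threshold differed by less than that SD.

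Members lay on most chromosomes. The largest shares on a whole chromosome were 1.82% of 165 genes judged on chromosome 18 for the higher members and 1.64% of 489 on chromosome 9 for the lower. Over all genes judged the shares were 0.633% and 0.577%. In 20 pairs of members the probes lay within 1 Mb of each other (hg17), and the closest pairs are named here. MYORG and SPMIP6 lay 8.9 kb apart and went opposite ways, as did MTMR11 and OTUD7B (35.6 kb), PPP1R15A and BAX (86.8 kb), FAM228A and TP53I3 (105.6 kb) and POLR2J2 and FBXL13 (184.9 kb). HOXB8 and PRAC1, and GTF2I and WBSCR23 (164 kb), were lower together. Pairs farther apart went both ways, and the share of such pairs over all genes judged was not counted. On the array's surface the members' probes were spread over the whole printed area, and 0 were saturated.

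The same rule was applied to probes that carry no RefSeq mRNA accession, such as those for cDNA clones and predicted transcripts, which the members leave out by definition. Of 7951 such probes measured on all 3 arrays, 43 (0.541%) were higher and 239 (3.01%) lower only in NM, against 82 (0.455%) and 77 (0.427%) of 18030 probes with the accession. The excess on the lower side was present at each level of signal: it was 4.55% against 0.942% at 100 to 300 a.u. in OM, 5.79% against 0.596% at 300 to 1000 a.u., and 1.14% against 0.294% above 3000 a.u. The dim, little-studied members on the lower side were thus outnumbered by probes without the accession that showed the same order of arrays.

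**Figure D5:**
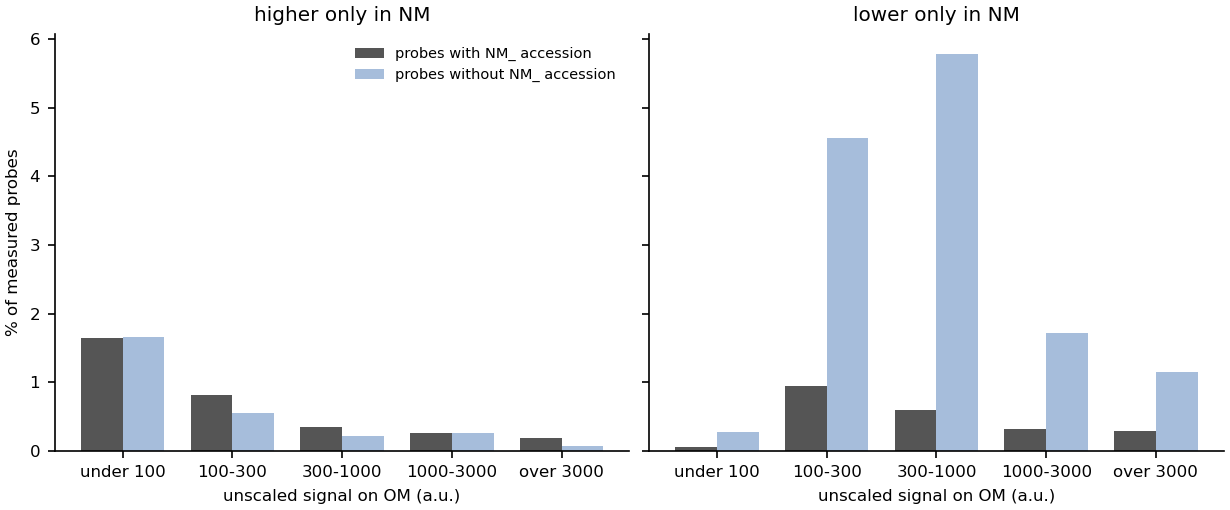
Share of measured probes that were higher (left) or lower (right) only in NM, by unscaled signal on OM, for probes with (dark) and without (light) a RefSeq mRNA accession. On the left the classes differ less, whereas on the right the light bars exceed the dark ones in every bin and reach 5.79% at 300 to 1000 a.u.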

How the data were processed

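Total RNA of the OM, MB and NM populations was hybridised as Cy3-labelled cRNA to 3 arrays (Agilent 4 × 44K design) on 1 slide, 1 per population. The authors deposited the spot intensity values of Feature Extraction (version 9.5.3.1 per the file headers, 9.5 per the submitters' notes), background-subtracted on a linear scale, with no scaling between arrays. Their series value table repeats these intensities (130128 of 130128 within 0.1%).

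Control spots and outlier spots (77, 79 and 81) were left out, repeated spots were reduced to their mean, and signals were scaled to the 75th percentile of their array. A probe counted as well above background where at least 0.5 of its kept spots were flagged so. Each gene name was counted once. The members and the gene lists were chosen with earlier results of these data known. The text names the 15 members of each direction with the largest geometric mean of both NM ratios, members of a list, and the 3 genes nearest each threshold. Others were chosen after their values were seen. Names were matched to RefSeq (GRCh38.p14) for 143 of 151 members, 134 by accession, 6 by symbol and 3 by synonym, which renamed 30. With 1 array per population no test was run, and this number limits every ratio. The code of the rule was run on simulated arrays with known changes and technical noise alone, which says nothing of variation between cultures. Background correction by normexp used limma 3.58.1 in R 4.3.3 (offset 50), and all else used pandas 2.3.3, numpy 2.4.6 and matplotlib 3.10.9 under Python 3.11.15. No genome of build hg17 was used here, so exons and introns under the probes were not analysed. Values of some genes are not reported here.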

Additional observations from a re-analysis of the deposited data

How the results depend on the processing

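No paired analysis was possible because each population has 1 array. Against 79 higher and 72 lower genes, the 8 alternatives in scaling, background, outlier spots and source of values gave 57 to 92 and 33 to 108, and 30 higher and 23 lower genes were kept under all 8. The lower count was 33 with normexp and 38 with no background subtraction. Counts of higher and lower genes were 147 and 155 with 1 array above background in place of 3, 196 and 204 at thresholds of 2 and 0.5, 16 and 8 at 4 and 0.25, 51 and 46 with a window for MB over OM starting at 0.8, and 152 and 126 without one. Above 100 a.u. on all arrays, 53 higher and 42 lower genes were left.

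The median log2 ratio of NM to OM, 1.66 for the higher and -1.64 for the lower genes, was 1.74 and -1.565 when scaled to GAPDH, ACTB and HSP90AA1, 1.74 and -1.53 with quantile normalization, 1.55 and -1.75 without scaling, 1.41 and -1.32 with normexp, 1.44 and -1.34 with no background subtraction, 1.91 and -1.715 with 1 array above background, 1.31 and -1.28 at thresholds of 2 and 0.5, and 2.41 and -2.27 at 4 and 0.25. Higher genes made up 52.3% of the members, 62.8% with quantile normalization, 34.5% without scaling, 63.7% with normexp and 62.7% with no subtraction. Without scaling the median log2 ratio of all probes moved by -0.11 for NM over OM and -0.27 for NM over MB. Scaling to the 3 genes moved NM over MB by -0.11 and MB over OM by 0.19, and UNC5B, at 1.42 times OM on MB, then left the window. The cause of these shifts was not tested. Of the 72 lower genes, 30 read under 100 a.u. on NM, near the background.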

Other observations

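Among probes with no RefSeq mRNA accession, FRMD4A, a scaffold protein of cell polarity, was lower in NM on 2 probes for cDNA clones. They read 13059 a.u. in OM, 16970 in MB and 1375 in NM, and 8038, 9595 and 710 a.u., 8.78-fold and 10.5-fold below OM. Both of its probes with the accession were measured too. One read 3328, 2292 and 2013 a.u., 1.53-fold below OM but 1.06 times MB, and the other 4781, 8107 and 1897 a.u., 2.33-fold below OM and 3.54-fold below MB. SYTL5, a Rab27-binding protein and a member on its own probe (204, 179 and 46.7 a.u.), had a far brighter second probe for a cDNA clone, at 3344 a.u. in OM, 2822 in MB and 722 in NM, 4.28-fold below OM. Of the 239 probes without the accession that were lower only in NM, 37 matched a current gene by accession, symbol or synonym, and 1 of them belonged to a lower member. At 300 to 1000 a.u. in OM, the median log2 ratio of NM to OM over all measured probes without the accession was -0.14, against -0.04 with it.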
